A study of Mus musculus with 24 samples.

Results

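The 50 genes described here encode the DNA replication machinery and enzymes that supply its nucleotides. They were given as a list of symbols chosen by function, and all 50 were found among the 55471 genes of the count tables. By role, 15 license replication origins, 8 fire the licensed helicase, 20 synthesize DNA at the fork, 5 supply nucleotides and 2 assemble chromatin behind the fork. In dividing cells the origin recognition complex marks start sites on DNA, and CDC6 and CDT1 load the ring-shaped MCM helicase there. Geminin (Gmnn) blocks CDT1, so that no site is licensed again in the same S phase. The kinase DBF4-CDC7, MCM10, CDC45 and the GINS complex then turn the helicase on, and primase, polymerases, sliding clamp and ligase copy the strands. Cleaving mouse embryos run these S phases first on messages stored in the egg and then on messages of their own genome. Many of these genes are known targets of E2F transcription factors.

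Polyadenylated RNA was sequenced from B6D2F1 mouse embryos, with 10 embryos pooled per library and 4 libraries in each of 6 groups, 24 in all. The groups were wild-type, Ttf1 knockout and Zfp622 knockout embryos taken as late 2-cell embryos (L2C) or as morulae. Ttf1 encodes a transcription termination factor of RNA polymerase I, and Zfp622 a zinc finger protein. Cas9 protein and 3 guide RNAs were injected into zygotes, so a knockout library pools edited embryos and is not a bred line. The strain label runs upward from B6D2F1 along the libraries, and the genotype label of the Zfp622 libraries runs upward through other gene names, so groups were read from the titles. The letters NC in the wild-type titles are not explained, and whether wild-type zygotes were injected is not given in the sources used here. Levels are in CPM, the usual relative read count, on library sizes scaled within a stage unless stated otherwise, with the SD over 4 libraries. Embryos of a knockout group are also written as without Ttf1 or without Zfp622, although residual transcript remained. A gene was called at an adjusted p of at most 0.05 in edgeR's quasi-likelihood test over all genes tested, and these p-values measure the spread between pooled libraries.

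The targeted transcripts were lower in their own knockouts at both stages. Ttf1 had log2 fold changes of -1.45 at L2C (adjusted p = 3.21e-07) and -0.77 at morula (adjusted p = 3.47e-05), and Zfp622 had -1.42 (adjusted p = 0.00243) and -1.78 (adjusted p = 0.00105). Total counts ran from 10538723 to 17807596 per library. All Ttf1 knockout libraries carry lane 1 in the file headers and all others lane 2. Lane and Ttf1 genotype therefore cannot be told apart within a stage, whereas Zfp622 knockout and wild type share lane 2. A second index number is recorded for library 4 of wild-type L2C and for libraries 3 and 4 of wild-type morula, and results are also given without these 3 where they change. Of 18 cumulus and granulosa cell markers, 12 to 14 had a mean under 0.5 CPM in each group. Since levels are relative counts from pools of whole embryos, a lower share per cell and a changed mix of cells or embryos cannot be told apart.

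Promoter windows from 250 bases before to 50 after the start were taken from RefSeq (GRCm38.p6) for 42 of the 50 genes, matched by symbol. The E2F letters TTTCCCGC, TTTGGCGC, TTTGCCGC and TTTCGCGC were searched on both strands, and they stood in 15 of the 42 genes' windows (35.7%), against 2.6% of all 27025 genes in the table. The 15 genes were Mcm3, Mcm6, Pola1, Orc3, Orc1, Mcm7, Rfc3, Lig1, Pold1, Pold3, Mcm5, Gins3, Cdt1, Cdc6 and Pole2. The letters CCAAT, also on both strands, were found for 24 genes (57.1%, against 41.1% of all). TTTGAA or TTCGAA, the letters of the cell cycle homology region, were found for 9 (21.4%, against 21.7%). Of 23 matched genes that fell in Ttf1 knockout morulae 8 held the E2F letters, as did 7 of the other 19. A match describes letters and not a bound site.

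The windows of 5 genes that hold these letters are shown 5′ to 3′ on the gene's own strand, with the E2F letters in capitals. They were picked for the most matches among genes named in full, with ties taken in order of naming. Mcm7, with 2 matches, was not among the genes named in full. Mcm6 (chr1:128359656-128359955, minus strand, 3 matches), Mcm5 (chr8:75109259-75109558, plus strand, 2 matches) and Mcm3 (chr1:20820263-20820562, minus strand, 2 matches) encode helicase subunits that fell in both knockouts at morula. Lig1 (chr7:13278576-13278875, plus strand, 1 match), DNA ligase I, fell in both as well. Rfc3 (chr5:151651159-151651458, minus strand, 2 matches), a clamp loader subunit, holds as many matches as Mcm5 and was not called in either knockout. Matches on opposite strands share bases in the first run of capitals of Mcm6 and in the run of Mcm5.
Mcm6: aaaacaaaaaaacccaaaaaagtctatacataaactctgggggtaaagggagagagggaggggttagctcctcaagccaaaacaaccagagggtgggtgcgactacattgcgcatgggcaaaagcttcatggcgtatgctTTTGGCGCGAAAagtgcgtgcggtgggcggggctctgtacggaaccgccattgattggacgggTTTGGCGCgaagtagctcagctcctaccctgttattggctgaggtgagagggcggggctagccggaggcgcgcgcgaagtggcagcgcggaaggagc
Mcm5: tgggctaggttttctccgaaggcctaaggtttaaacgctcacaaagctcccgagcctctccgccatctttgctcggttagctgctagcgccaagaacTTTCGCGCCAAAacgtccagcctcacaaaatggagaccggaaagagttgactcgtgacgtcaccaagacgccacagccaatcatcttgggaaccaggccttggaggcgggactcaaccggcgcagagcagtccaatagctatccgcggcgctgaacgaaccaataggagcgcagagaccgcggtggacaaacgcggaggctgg
Mcm3: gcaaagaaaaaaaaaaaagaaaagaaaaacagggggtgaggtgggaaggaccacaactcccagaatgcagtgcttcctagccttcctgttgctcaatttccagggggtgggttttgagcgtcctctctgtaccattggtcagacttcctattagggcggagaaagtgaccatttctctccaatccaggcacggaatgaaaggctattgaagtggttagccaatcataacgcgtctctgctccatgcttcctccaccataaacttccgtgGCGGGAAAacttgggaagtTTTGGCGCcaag
Lig1: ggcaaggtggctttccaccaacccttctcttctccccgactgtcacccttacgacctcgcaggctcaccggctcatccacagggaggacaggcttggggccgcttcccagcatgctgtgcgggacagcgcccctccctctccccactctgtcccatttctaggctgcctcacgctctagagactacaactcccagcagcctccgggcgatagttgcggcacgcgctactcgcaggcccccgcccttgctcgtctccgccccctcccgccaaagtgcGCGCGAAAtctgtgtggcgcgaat
Rfc3: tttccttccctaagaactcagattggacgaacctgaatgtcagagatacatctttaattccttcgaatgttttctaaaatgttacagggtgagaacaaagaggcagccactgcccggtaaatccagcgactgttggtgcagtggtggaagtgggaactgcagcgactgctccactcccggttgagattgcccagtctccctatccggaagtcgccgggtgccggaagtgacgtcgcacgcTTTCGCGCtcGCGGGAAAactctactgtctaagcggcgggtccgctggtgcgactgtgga

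In wild-type embryos 34 of the 50 genes rose from L2C to morula, 9 fell and 7 did not pass the threshold, where 37.9% of all genes rose and 46.1% fell. The median log2 fold change was 1.098 over the 50 genes and -0.30 over all genes tested. By role, 11 of 15 licensing genes rose and 3 fell, 4 of 8 firing genes rose and 4 fell, 14 of 20 synthesis genes rose and 1 fell, and 4 of 5 nucleotide genes rose and none fell. The split moves with the scaling between stages. With total counts alone the median of all genes was -0.87, and 28 of the 50 genes rose and 18 fell, beside 5595 and 10420 of all genes (otherwise 7141 and 8701). Orc2, Orc4, Dut, Rpa2, Rfc1, Pole, Mcm2 and Gins4 had positive log2 fold changes under the first scaling and negative ones under total counts, where Orc4 (-0.38) and Rpa2 (-0.34) were called lower and no longer higher. In this comparison CPM values are scaled over all 24 libraries, and genes are compared with each other per kilobase of exon. This length sums all annotated exons of a gene, used or not, so ratios and rankings between genes depend on the annotation.

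**Figure D1:**
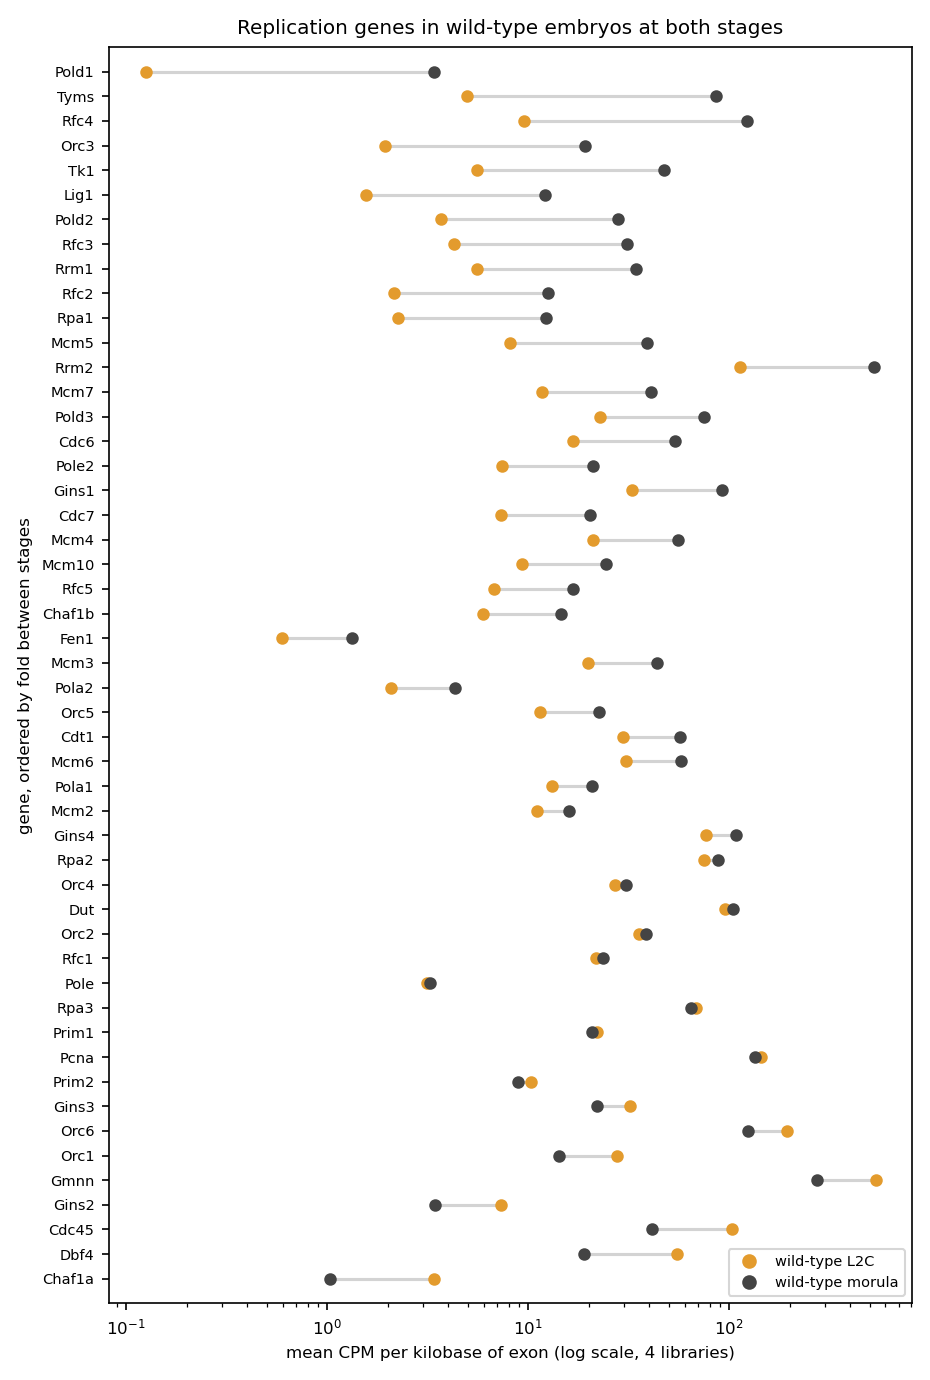
Mean level of each of the 50 genes in wild-type embryos at L2C and at morula, in CPM per kilobase of exon on a log axis, with 4 libraries per mean and genes ordered by their fold between stages. Gmnn was highest at L2C (535) and Rrm2 at morula (524), and Pold1 was lowest at L2C (0.125).

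Pold1, Tyms and Rfc4 had the highest log2 fold changes of the 50 genes. Pold1, the catalytic subunit of polymerase delta, was at 0.860, 0.394, 0.448 and 0.726 CPM at L2C and at 17.3, 15.7, 17.98 and 14.9 CPM at morula. Every morula library lay far above every L2C library (log2 fold change 4.73, SE 0.31, adjusted p = 1.66e-14). Tyms, which makes thymidylate for DNA, was at 34.7, 33.8, 26.6 and 26.2 CPM at L2C and at 535, 537, 529.6 and 494 CPM at morula, again without overlap (log2 fold change 4.11, SE 0.15, adjusted p = 3.53e-19). Rfc4, a clamp loader subunit, was at 13.1, 20.6, 13.0 and 11.95 CPM at L2C and at 194, 186, 194 and 181 CPM at morula (log2 fold change 3.69, SE 0.15, adjusted p = 1.16e-19). Orc3, described below, came next (log2 3.31), then Tk1 (3.10), Lig1 (2.95), Pold2 (2.93), Rfc3 (2.87), Rrm1 (2.62) and Rfc2 (2.53). Each had all morula libraries above all L2C libraries. Such a lack of overlap was common in this comparison, at 79.8% of all genes. Of the 50 genes 34 lay above and 8 below without overlap. Rrm1 and Rrm2, the subunits of ribonucleotide reductase, which turns ribonucleotides into deoxyribonucleotides, both rose. Rrm2 went from 312 ± 39.3 to 1452 ± 135 CPM (log2 2.22, adjusted p = 3.7e-19). Per kilobase it stood 20.4 ± 3.51 times above Rrm1 at L2C and 15.4 ± 2.0 times at morula, with the lowest L2C ratio (17.34) and the highest morula ratio (17.37) overlapping. The annotated exon length was 11012 bases for Rrm1 and 2771 for Rrm2, which raises this ratio above that of the CPM values.

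Within the origin recognition complex the 6 subunits moved apart. Orc3 was at 12.2, 11.8, 10.2 and 12.8 CPM at L2C and at 117, 113, 119 and 117 CPM at morula, with no overlap (log2 fold change 3.31, SE 0.11, adjusted p = 1.23e-21). Orc5 also rose (0.97), while Orc1 (-0.95) and Orc6 (-0.66) fell. Orc4 passed narrowly with overlapping libraries (0.19, adjusted p = 0.0492; 0.241 without the second-index libraries), and Orc2 was not called (0.12). Per kilobase Orc3 was the lowest of the 6 at L2C (1.93) and Orc6 the highest (195), and at morula Orc1 was the lowest (14.3) and Orc6 again the highest (124). All 6 helicase subunits rose, led by Mcm5 (log2 2.26) and Mcm7 (1.80), then Mcm4 (1.41), Mcm3 (1.15), Mcm6 (0.91) and Mcm2 (0.53), of which Mcm2 was not called with total counts. Their summed level was 456 ± 1.76 CPM at L2C and 1084 ± 54.4 CPM at morula. Geminin fell from 784 ± 67.6 to 403 ± 22.6 CPM (log2 -0.96, adjusted p = 4.33e-13). The loading factor it blocks, Cdt1, rose from 92.8 ± 5.53 to 179 ± 21.1 CPM (log2 0.94, adjusted p = 9.5e-11), and Cdc6 rose too (1.69). Per kilobase Gmnn stood 18.2 ± 2.602 times above Cdt1 at L2C (lowest 14.9) and 4.88 ± 0.4997 times at morula (highest 5.51).

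Firing genes split evenly. Dbf4, the activating subunit of the CDC7 kinase, was at 449.9, 519, 483 and 471 CPM at L2C and at 172, 169, 163 and 155 CPM at morula. All morula libraries lay below all L2C libraries (log2 fold change -1.54, SE 0.075, adjusted p = 8.49e-18). The catalytic subunit Cdc7 went from 30.6 ± 4.65 to 84.6 ± 5.52 CPM, so the partners moved in opposite directions (log2 1.47, adjusted p = 3.32e-11). Cdc45, part of the active helicase, fell (-1.33) and Mcm10, which activates it, rose (1.40). Of the 4 GINS subunits Gins1 (1.49) and Gins4 (0.49) rose and Gins2 (-1.09) and Gins3 (-0.54) fell, with Gins4 not called under total counts (-0.085). Chaf1a and Chaf1b, subunits of the chromatin assembly factor CAF-1, also parted (-1.72 and 1.28). Prim2, the large primase subunit, was the 1 synthesis gene that fell (-0.21, adjusted p = 0.0439), with overlapping libraries. The sliding clamp Pcna (-0.095), Prim1 (-0.086) and Rpa3 (-0.077) were not called and fell under total counts.

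At L2C few of the 50 genes were called between genotypes. In the Ttf1 knockout 1 rose and 1 fell, where 1.54% of all genes were called in either direction. Knockout and wild-type libraries did not overlap for 9.94% of all genes, and of the 50 genes 4 lay above and 2 below wild type. Rrm1 was at 81.5, 71.1, 72.7 and 75.2 CPM in wild type and 90.8, 123, 108.2 and 105.5 CPM in the knockout, without overlap (log2 fold change 0.51, SE 0.13, adjusted p = 0.0474). Gmnn was at 844, 990.0, 966 and 1045 CPM in wild type and 798, 768, 789 and 723 CPM in the knockout, again without overlap (log2 fold change -0.32, SE 0.077, adjusted p = 0.0433). Each call was lost in 9 of 15 alternative analyses, with adjusted p between 0.000833 and 0.134 for Rrm1 and between 0.00407 and 0.142 for Gmnn. Leaving out any 1 of wild-type libraries 2, 3 and 4 or knockout libraries 2, 3 and 4 ended both calls, leaving out wild-type library 1 ended that of Rrm1, and leaving out knockout library 1 ended that of Gmnn. Cdc45 was at 446 ± 14.9 CPM in wild type and 539 ± 36.1 CPM in the knockout, without overlap, and did not pass (0.27, adjusted p = 0.061).

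In the Zfp622 knockout at L2C none of the 50 genes was called in edgeR or DESeq2, where edgeR called 0.0179% of all genes. By unadjusted p under 0.05 in edgeR 1 was higher and 3 were lower, beside 1079 of all 16770 genes in either direction. For Mcm6 the 95% interval of the log2 fold change at L2C was 0.057 to 0.43 in the Ttf1 knockout and -0.15 to 0.23 in the Zfp622 knockout. For Mcm10 it was -0.39 to 0.043 and -0.30 to 0.13. The summed level of Mcm2 to Mcm7 was 456 ± 1.76 CPM in wild-type, 486 ± 40.1 in Ttf1 knockout and 440.0 ± 22.2 in Zfp622 knockout L2C embryos.

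At morula many of the 50 genes were lower in the knockouts. In the Ttf1 knockout 28 fell, 5 rose and 17 did not pass, where 17.9% of all genes fell and 21.3% rose. The median log2 fold change was -0.25 over the 50 genes and 0.036 over all genes. In the Zfp622 knockout 15 fell, 2 rose and 33 did not pass, where 13.5% of all genes fell and 15.6% rose, with medians of -0.19 and 0.027. Both knockouts were compared with the same 4 wild-type libraries, so their values are given side by side and are not independent. Knockout and wild-type libraries did not overlap for 36.5% of all genes with Ttf1 and 30.8% with Zfp622. Of the 50 genes 24 lay below and 4 above wild type in this way for Ttf1, and 16 and 3 for Zfp622. Without wild-type morula libraries 3 and 4, which carry a second index number, 15 fell and 1 rose in the Ttf1 knockout, and 6 fell and 2 rose in the Zfp622 knockout. Calls over all genes dropped as well. Of 15860 genes 1684 fell and 1869 rose for Ttf1 (otherwise 2663 and 3170 of 14865). For Zfp622 957 fell and 1086 rose (otherwise 2008 and 2313). Of the calls among the 50 genes 15 for Ttf1 and 8 for Zfp622 were also made, in the same direction, with all libraries. Zfp622 knockout library 4 was the lowest of its group for 29 of the 50 genes. Zfp622 itself was at 17.6, 16.98, 19.9 and 6.09 CPM in these libraries, lowest in library 4, and with library 4 left out 14 genes fell and 2 rose.

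**Figure D2:**
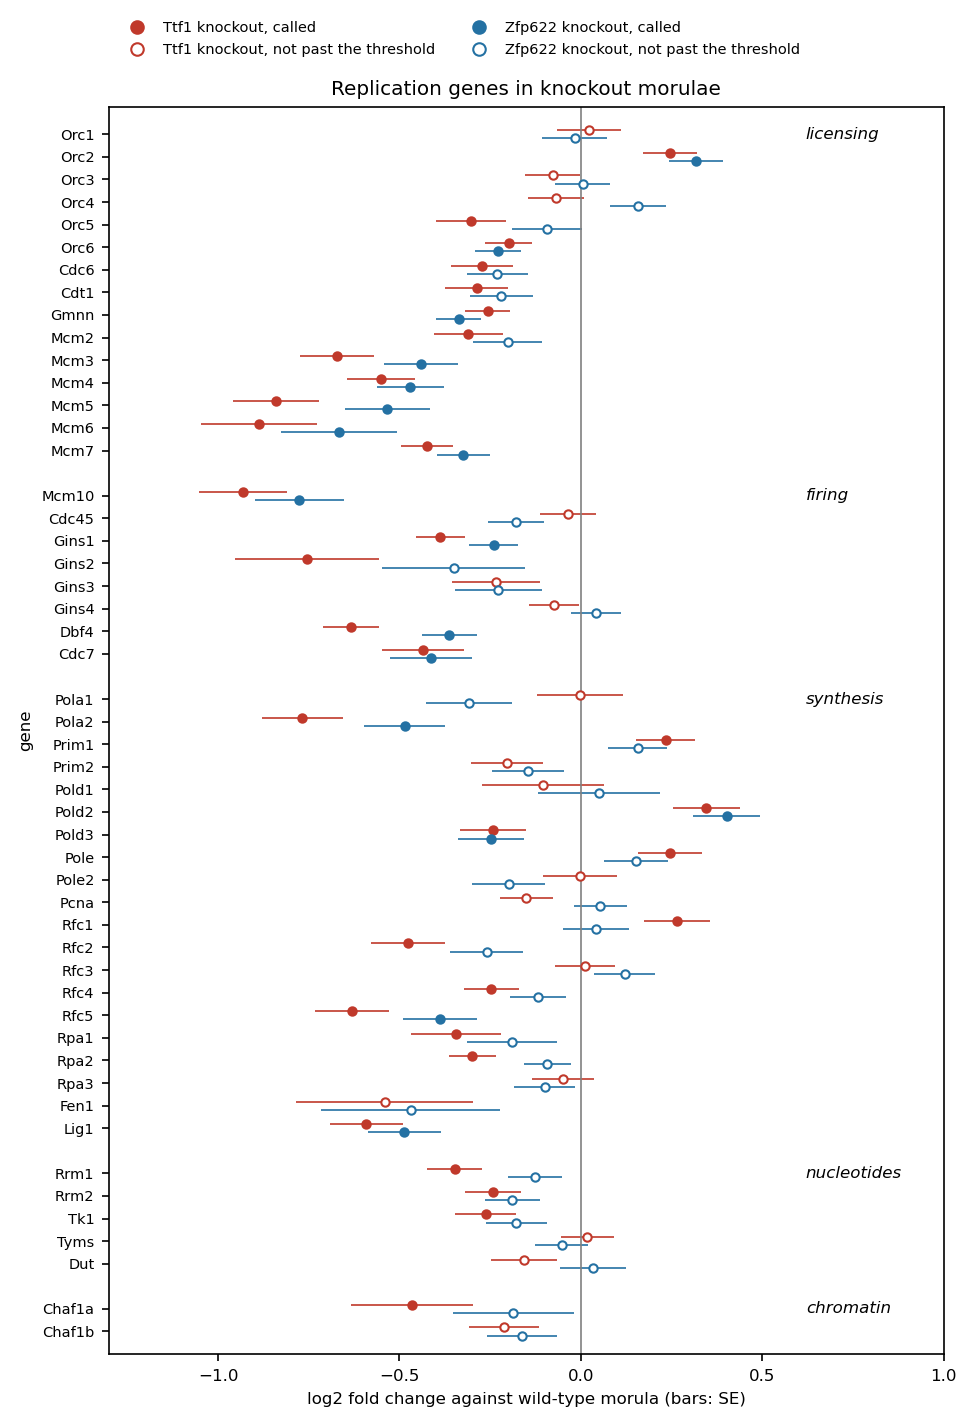
Log2 fold change at morula of each of the 50 genes in the Ttf1 and in the Zfp622 knockout against the same wild-type libraries, grouped by role, with bars of 1 SE and filled points for called genes. The lowest points are those of Mcm10 (-0.93 and -0.78), Mcm6 (-0.89 and -0.67) and Mcm5 (-0.84 and -0.53), and Pold2 (0.35 and 0.40) lies above 0 in both.

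Markers of developmental stage and the mitochondrial share of counts were measured in the same libraries. Of 9 tested markers of the late 2-cell stage 3 rose in Ttf1 and 2 in Zfp622 knockout morulae, where 21.3% and 15.6% of all genes rose. Of 12 morula markers 8 fell and 2 rose in Ttf1, and 6 fell and 2 rose in Zfp622 knockout morulae. Over all genes 17.9% and 13.5% fell. The sum of the morula markers was higher in both knockouts, but it was mostly Dppa3 and does not show the other markers. Dppa3 averaged 5390 of a mean sum of 7230 CPM in wild-type, 7392 of 8466 in Ttf1 knockout and 7717 of 8937 in Zfp622 knockout morulae. The sum ran from 6934 to 7380 CPM in wild-type, 7785 to 8994 in Ttf1 knockout and 8305 to 9691 in Zfp622 knockout morulae. This and the other marker sums below are scaled over all libraries. The late 2-cell markers summed to 33.1 to 67.9 CPM in wild-type, 46.4 to 134 in Ttf1 knockout and 52.5 to 71.9 in Zfp622 knockout morulae, beside 677 to 968 CPM in wild-type L2C embryos. The 15 blood cell markers summed to 12.9 to 17.6, 27.4 to 46.1 and 34.6 to 45.8 CPM in the morula groups, mostly from Cd68, with 12 or 13 of the 15 at a mean under 0.5 CPM. The mitochondrial share of counts was 2.24 to 2.45% in wild-type, 3.14 to 3.76% in Ttf1 knockout and 2.79 to 3.69% in Zfp622 knockout morulae, so both knockouts lay above wild type without overlap, and Zfp622 knockout library 4 was the highest of its group. In wild-type L2C embryos it was 5.50 to 6.03%. The part of these markers and of the mitochondrial share in the replication gene results was not tested. Genes on chromosome 2 distal to Ttf1, among them Orc4, Dut, Pcna and Gins1, had a median log2 fold change of -0.11 at L2C and -0.17 at morula in the Ttf1 knockout, beside 0.007 and 0.046 on other autosomes.

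Of 15 licensing genes 11 fell and 1 rose in Ttf1 knockout morulae, and 7 fell and 1 rose in Zfp622 knockout morulae. All 6 subunits of the MCM helicase fell in the Ttf1 knockout and 5 of them in the Zfp622 knockout. Mcm6 was at 217, 228, 219 and 214 CPM in wild type, at 128, 96.0, 136 and 115 without Ttf1 and at 157, 153, 156 and 87.2 without Zfp622. Every knockout library lay below every wild-type library, and Zfp622 library 4 lay far below the other 3. The log2 fold change was -0.89 in the Ttf1 knockout (SE 0.16, adjusted p = 0.000902) and -0.67 in the Zfp622 knockout (SE 0.16, adjusted p = 0.00772). Mcm5 was at 121, 114, 138 and 134 CPM in wild type, at 75.5, 71.9, 72.1 and 64.1 without Ttf1 and at 102, 89.2, 95.7 and 63.5 without Zfp622. Neither knockout reached the wild-type range (log2 -0.84, adjusted p = 5.91e-05, and -0.53, adjusted p = 0.00307). Without the second-index libraries the Zfp622 calls of both genes were lost (-0.69, adjusted p = 0.0538 for Mcm6, and -0.43, adjusted p = 0.0663 for Mcm5).

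The other 4 subunits had smaller differences. Mcm3 was at 132, 134, 143 and 129 CPM in wild type, at 95.5, 80.2, 82.5 and 79.1 without Ttf1 and at 119, 92.4, 104.4 and 80.3 without Zfp622, with no overlap with wild type (log2 -0.67, adjusted p = 0.000107, and -0.44, adjusted p = 0.00411). Mcm4 was at 179.6, 157, 169.7 and 148 CPM in wild type, at 118, 116, 106.8 and 105.9 without Ttf1 and at 134, 109.4, 129 and 99.9 without Zfp622, again without overlap (log2 -0.55, adjusted p = 0.000258, and -0.47, adjusted p = 0.00152). Mcm7 averaged 148 ± 8.48 CPM in wild type, 109.9 ± 5.34 without Ttf1 and 118 ± 7.80 without Zfp622 (log2 -0.42, adjusted p = 0.000292, and -0.32, adjusted p = 0.00349, or 0.0519 without the second-index libraries). This gene shares its locus with Cops6, Ap4m1 and 3 microRNA genes, and counting used no strand. Mcm2 had the smallest difference of the 6, averaging 90.8 ± 9.18 CPM in wild type, 73.2 ± 4.05 without Ttf1 and 78.9 ± 9.35 without Zfp622, and it was not called in the Zfp622 knockout (log2 -0.31, adjusted p = 0.0159, and -0.20, adjusted p = 0.121). On the scaling over all libraries the 6 genes summed to 1030.0 to 1158 CPM in wild-type, 651 to 765 in Ttf1 knockout and 629.9 to 878 in Zfp622 knockout morulae.

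**Figure D3:**
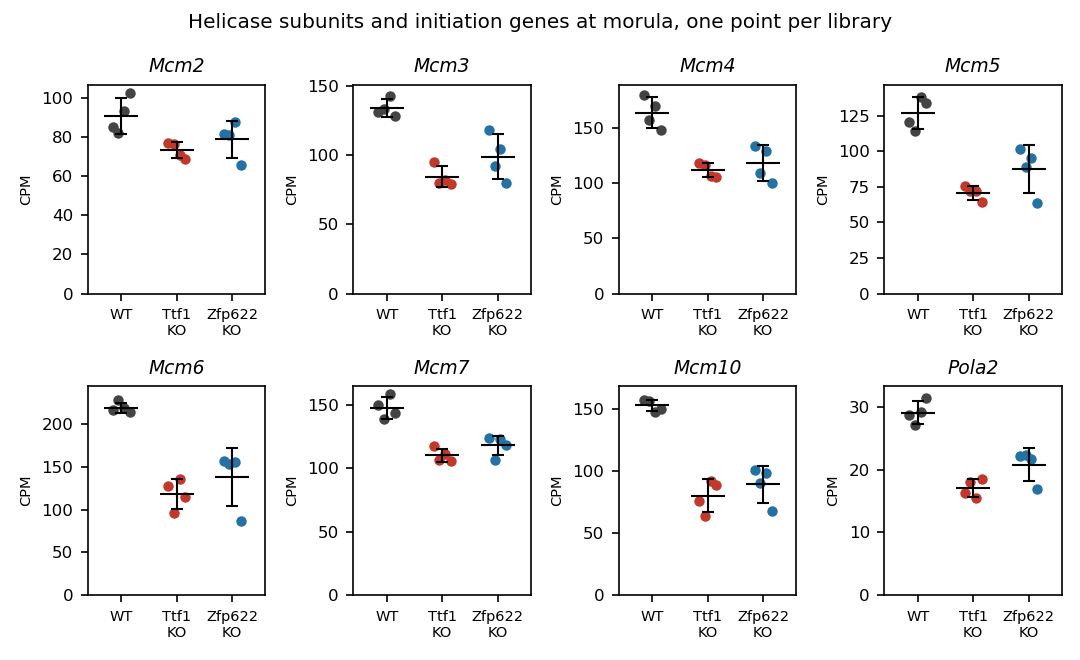
Level in each morula library, in CPM, of Mcm2 to Mcm7, Mcm10 and Pola2 in wild-type, Ttf1 knockout and Zfp622 knockout embryos, with 1 coloured point per library and black bars for the mean ± SD of 4. Zfp622 knockout library 4 is the lowest of its group for Mcm6 (87.2), Mcm10 (67.7) and Pola2 (16.9).

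Geminin fell in both knockouts, and the loading factors Cdc6 and Cdt1 fell in the Ttf1 knockout. Gmnn was at 337, 306, 332 and 338 CPM in wild type, at 262, 278, 289 and 269.6 without Ttf1 and at 261, 273, 259.7 and 246 without Zfp622. All knockout libraries lay below wild type (log2 -0.26, adjusted p = 0.00387, and -0.34, adjusted p = 0.000912). Cdc6 (-0.27, adjusted p = 0.018) and Cdt1 (-0.29, adjusted p = 0.0145) fell in the Ttf1 knockout, and in the Zfp622 knockout they had -0.23 (adjusted p = 0.0512) and -0.22 (adjusted p = 0.0664). The ratio of Gmnn to Cdt1 per kilobase was 4.88 ± 0.4997 in wild type, 4.96 ± 0.301 without Ttf1 and 4.47 ± 0.188 without Zfp622, with overlapping libraries. In the origin recognition complex Orc2 was at 119.5, 123, 114 and 130.1 CPM in wild type, at 139, 154, 131 and 154 without Ttf1 and at 149, 157, 141 and 159.7 without Zfp622. It rose in both knockouts without overlap (log2 0.25, adjusted p = 0.0156, and 0.32, adjusted p = 0.00474). Orc6 fell in both (-0.20, adjusted p = 0.0199, and -0.23, adjusted p = 0.013), Orc5 fell in the Ttf1 knockout with overlapping libraries (-0.30, adjusted p = 0.0204), and Orc1, Orc3 and Orc4 were called in neither. Without the second-index libraries Cdc6, Cdt1, Gmnn, Mcm2, Orc2, Orc5 and Orc6 were not called in the Ttf1 knockout (adjusted p from 0.0502 to 0.225), nor Orc6 in the Zfp622 knockout (0.164).

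Of 8 firing genes 5 fell in morulae without Ttf1 and 4 in those without Zfp622, and none rose in either. Mcm10, which activates the loaded helicase (chromosome 2, 4989714 to 5012791 on GRCm38), was at 157, 156, 148 and 150.1 CPM in wild type, at 75.96, 63.5, 92.3 and 88.5 without Ttf1 and at 101, 89.9, 98.1 and 67.7 without Zfp622. The highest knockout library lay well below the lowest wild-type library. Its log2 fold change was the lowest of the 50 genes in each knockout (-0.93, SE 0.12, adjusted p = 3.93e-05, and -0.78, SE 0.12, adjusted p = 3e-04), and both calls held in 16 of 16 alternative analyses, while neither reaches an added bound of 1 on the size of the log2 fold change. Dbf4 was at 139.9, 140.3, 130.1 and 127 CPM in wild type, at 80.8, 85.9, 82.8 and 96.8 without Ttf1 and between 96.1 and 108.3 in the 4 libraries without Zfp622. Neither knockout overlapped wild type (log2 -0.63, adjusted p = 1.62e-05, and -0.36, adjusted p = 0.00229). Its partner Cdc7 was at 69.3, 63.6, 71.03 and 71.7 CPM in wild type, at 44.4, 40.7, 62.3 and 56.6 without Ttf1 and at 49.3, 51.0, 54.5 and 52.2 without Zfp622, also without overlap (log2 -0.44, adjusted p = 0.00573, and -0.41, adjusted p = 0.0112). Both Cdc7 calls were lost without the second-index libraries (adjusted p = 0.0669 and 0.111).

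The GINS subunits and Cdc45 were uneven. Gins2 was at 11.9, 10.2, 10.97 and 12.8 CPM in wild type, at 8.11, 6.94, 6.06 and 6.01 without Ttf1 and at 10.9, 11.1, 8.81 and 5.14 without Zfp622. It fell in the Ttf1 knockout (log2 -0.76, adjusted p = 0.00645, or 0.0597 without the second-index libraries) and was not called in the Zfp622 knockout, whose libraries overlapped wild type (-0.35, adjusted p = 0.194). Gins1 was at 119, 112, 115 and 112 CPM in wild type, at 82.7, 84.9, 92.6 and 89.5 without Ttf1 and at 92.0, 100.1, 95.2 and 100.0 without Zfp622. It fell in both without overlap (log2 -0.39, adjusted p = 0.00036, and -0.24, adjusted p = 0.0143, the latter lost at 0.0753 without the second-index libraries). Gins3 (-0.23 and -0.23), Gins4 (-0.075 and 0.043) and Cdc45 (-0.036 and -0.18) were not called in either knockout, with overlapping libraries.

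Of 20 synthesis genes 8 fell and 4 rose in Ttf1 knockout morulae, and 4 fell and 1 rose in Zfp622 knockout morulae. Pola2, the regulatory subunit of polymerase alpha (chromosome 19, 5940542 to 5964202 on GRCm38), was at 28.7, 27.1, 29.2 and 31.4 CPM in wild type, at 16.3, 18.1, 15.5 and 18.6 without Ttf1 and at 22.2, 22.4, 21.7 and 16.9 without Zfp622. Both knockouts lay below the wild-type range (log2 -0.77, SE 0.11, adjusted p = 7.43e-05, and -0.49, SE 0.11, adjusted p = 0.00388, the latter lost at 0.0643 without the second-index libraries). The other 3 subunits of the complex with primase were not called lower. Pola1, the catalytic subunit, had -0.002 (adjusted p = 0.989) and -0.31 (adjusted p = 0.0596). Prim2 had -0.20 (adjusted p = 0.114) and -0.15 (adjusted p = 0.29). Prim1, which makes the RNA primer, was at 69.04, 59.6, 66.9 and 67.0 CPM in wild type, at 78.1, 75.6, 74.9 and 80.1 without Ttf1 and at 80.7, 72.3, 74.6 and 65.0 without Zfp622. It rose in the Ttf1 knockout without overlap (0.23, adjusted p = 0.0293, or 0.109 without the second-index libraries) and was not called in the Zfp622 knockout (0.16, adjusted p = 0.158).

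Lig1, which seals nicks between Okazaki fragments, was at 43.7, 39.4, 42.5 and 42.8 CPM in wild type, at 33.7, 25.6, 26.4 and 26.1 without Ttf1 and at 32.2, 28.4, 30.9 and 28.6 without Zfp622. No knockout library reached wild type (log2 -0.59, adjusted p = 0.000278, and -0.49, adjusted p = 0.00207). The clamp loader, which places PCNA on DNA, moved unevenly over its 5 subunits. Rfc5 was at 59.8, 66.4, 69.8 and 59.3 CPM in wild type, at 45.8, 37.9, 38.2 and 42.9 without Ttf1 and at 54.3, 41.6, 53.4 and 45.7 without Zfp622. It fell in both without overlap (log2 -0.63, adjusted p = 0.000188, and -0.39, adjusted p = 0.00907, the latter lost at 0.0698 without the second-index libraries). Rfc2 (-0.48, adjusted p = 0.00152) and Rfc4 (-0.25, adjusted p = 0.0158) fell in the Ttf1 knockout, and in the Zfp622 knockout they had -0.26 (adjusted p = 0.0623) and -0.12 (adjusted p = 0.257). Rfc3 had 0.011 and 0.12 and was not called. Rfc1, the large subunit, rose in the Ttf1 knockout with overlapping libraries (0.27, adjusted p = 0.0272). Rfc5 shares its locus with Wsb2 and Rfc4 with Eif4a2. Without the second-index libraries Rfc4 and Rfc1 were not called (adjusted p = 0.0599 and 0.0653).

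Polymerase delta and epsilon genes did not share these falls as a group. Pold2, the second subunit of polymerase delta, was at 43.5, 39.1, 43.0 and 47.7 CPM in wild type, at 53.4, 64.1, 50.5 and 52.6 without Ttf1 and at 59.6, 59.3, 57.3 and 53.0 without Zfp622. All knockout libraries lay above wild type (log2 0.35, SE 0.093, adjusted p = 0.00739, and 0.40, SE 0.093, adjusted p = 0.0042). Pold3 fell in both (-0.24, adjusted p = 0.0418, and -0.25, adjusted p = 0.0493), and neither call held without the second-index libraries (0.0617 and 0.083). The catalytic subunit Pold1 was not called in either (-0.11 and 0.051). Pole, the catalytic subunit of polymerase epsilon, rose in the Ttf1 knockout (0.25, adjusted p = 0.0335, or 0.0977 without the second-index libraries) and had 0.15 in the Zfp622 knockout (adjusted p = 0.209). Pole2 had -0.002 and -0.20 and was not called.

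The sliding clamp Pcna was at 282, 251, 273 and 249 CPM in wild type, at 262, 243, 237 and 209 without Ttf1 and at 273, 279, 264 and 280.2 without Zfp622. Its libraries overlapped and it was not called (log2 -0.15, adjusted p = 0.114, and 0.054, adjusted p = 0.619). RPA binds the single strands exposed at the fork, and Rpa2 was at 217, 217, 220.4 and 204 CPM in wild type, at 166, 178, 188 and 166 without Ttf1 and at 194, 206, 197 and 208 without Zfp622. It fell in the Ttf1 knockout without overlap (log2 -0.30, adjusted p = 0.00169) and was not called in the Zfp622 knockout (-0.092, adjusted p = 0.307). Rpa1 fell in the Ttf1 knockout (-0.34, adjusted p = 0.0356, or 0.163 without the second-index libraries) and had -0.19 in the Zfp622 knockout (adjusted p = 0.267), and Rpa3 was called in neither (-0.05 and -0.10). Fen1, which trims Okazaki flaps, was low, averaging 2.62 ± 0.309 CPM in wild type, 1.80 ± 0.334 without Ttf1 and 1.89 ± 0.496 without Zfp622, and was not called (log2 -0.54, adjusted p = 0.0889, and -0.47, adjusted p = 0.163).

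Of 5 nucleotide genes 3 fell in Ttf1 knockout morulae. None was called in Zfp622 knockout morulae by edgeR. At an unadjusted p under 0.05 there 2 were lower and none higher, beside 6039 of all 14865 genes in either direction. Rrm1 was at 342, 306, 299.9 and 283 CPM in wild type, at 235, 251, 223 and 258 without Ttf1 and at 299, 276, 294 and 257 without Zfp622. The Ttf1 libraries all lay below wild type (log2 -0.35, SE 0.075, adjusted p = 0.00167) and the Zfp622 libraries overlapped it (-0.13, adjusted p = 0.221). Rrm2 was at 1168, 1056, 1268 and 1235 CPM in wild type, at 924, 1144, 988 and 942 without Ttf1 and at 1018, 1111, 1025 and 994 without Zfp622. It fell in the Ttf1 knockout with overlapping libraries (log2 -0.24, adjusted p = 0.0176), and without the second-index libraries it was not called (-0.16, adjusted p = 0.225). In the Zfp622 knockout Rrm2 had -0.19 (adjusted p = 0.0694). Tk1, which salvages thymidine, fell in the Ttf1 knockout with overlapping libraries (-0.26, adjusted p = 0.0204, or 0.205 without the second-index libraries). Tyms was at 435, 445, 422 and 405 CPM in wild type, at 412, 468, 397 and 452 without Ttf1 and at 448, 413, 416 and 368 without Zfp622, with all groups overlapping. Its log2 fold changes were 0.018 (95% interval -0.12 to 0.16) and -0.053 (-0.20 to 0.089). Dut, which removes dUTP, was not called (-0.16 and 0.034).

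**Figure D4:**
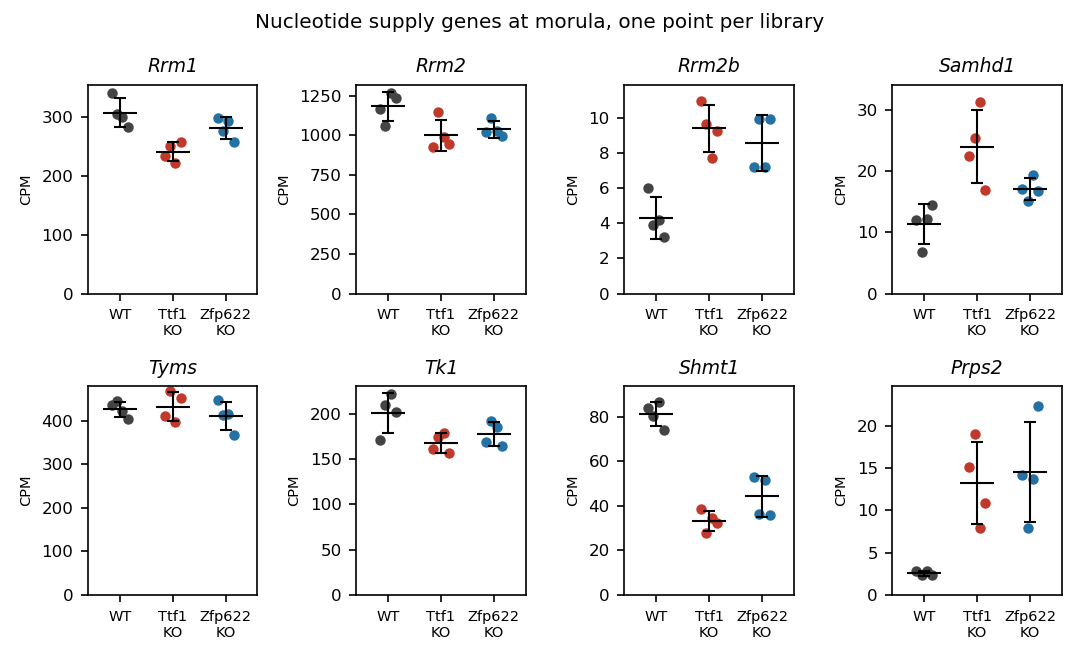
Level in each morula library, in CPM, of Rrm1, Rrm2, Tyms and Tk1 and of 4 related genes outside the 50 (Rrm2b, Samhd1, Shmt1 and Prps2), with 1 coloured point per library and black bars for the mean ± SD of 4. Mean Shmt1 is lower in both knockouts (33.3 and 44.3) than in wild type (81.4), and Tyms overlaps in all groups.

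In chromatin assembly Chaf1a was at 7.63, 6.79, 7.13 and 8.08 CPM in wild type, at 6.08, 5.58, 5.72 and 4.05 without Ttf1 and at 5.84, 7.03, 7.46 and 5.69 without Zfp622. It fell in the Ttf1 knockout without overlap (log2 -0.47, adjusted p = 0.036), and this call was lost in 6 of 16 other analyses (adjusted p from 0.0188 to 0.162), and it was not called in the Zfp622 knockout (-0.19, adjusted p = 0.434). Chaf1b had -0.21 (adjusted p = 0.0897) and -0.16 (adjusted p = 0.217).

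The knockouts were also compared with each other, where a negative log2 difference means lower in the Ttf1 knockout. At L2C none of the 50 genes was called in edgeR or DESeq2, where edgeR called 0.0358% of all genes. By unadjusted p under 0.05 in edgeR 3 were higher and 4 lower, beside 1362 of all 16770 genes in either direction. At morula none was called in edgeR, with 2 higher and 12 lower by unadjusted p under 0.05, where 0.229% of all genes were called. DESeq2 called 2 lower at morula, and edgeR without Zfp622 knockout library 4 called 1. The median log2 difference at morula was -0.092 over the 50 genes and 0.002 over all genes, and 38 of the 50 values were negative. Dbf4 had -0.27 (95% interval -0.42 to -0.12, adjusted p = 0.138) and Rpa2 -0.21 (-0.34 to -0.08, adjusted p = 0.173). Rrm1 had -0.22 (-0.37 to -0.074) and Mcm5 -0.31 (-0.54 to -0.074). For Mcm6 the difference was -0.22 (-0.54 to 0.094) and for Mcm10 -0.16 (-0.40 to 0.085). A miss of the threshold does not show that the knockouts act alike, and lane and genotype cannot be told apart here.

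Whether a knockout effect differed between stages was tested as an interaction over all 24 libraries. For Ttf1 the effect at morula was lower than at L2C for 16 of the 50 genes and higher for 1, where 8.65% of all genes were called lower and 12.5% higher. The differences of lowest value were those of Mcm6 (log2 -1.14, SE 0.19, adjusted p = 0.000112), Pola2 (-0.97, adjusted p = 0.000179), Mcm5 (-0.95, adjusted p = 0.00114) and Rrm1 (-0.87, adjusted p = 0.000155). The median was -0.29 over the 50 genes and 0.11 over all genes. Rrm1 was called higher at L2C and lower at morula in this knockout. Cdc7 (-0.78), Mcm10 (-0.77), Mcm3 (-0.75), Chaf1a (-0.71), Rfc2 (-0.70) and Rpa1 (-0.54) followed. Of these, Rfc2 was lost in 13 and Rpa1 in 8 of 24 alternative analyses (adjusted p up to 0.201 and 0.11), and Cdc7 and Chaf1a in 1 each. Rfc5, Prim2, Dbf4, Mcm7, Rpa2 and Cdc45 made up the rest, with values from -0.53 to -0.32, and Rfc1 was the 1 gene called higher (0.38, adjusted p = 0.0279). Ttf1 knockout and wild type differ in lane at both stages, and whether lane acts alike at both was not tested. Without the 3 second-index libraries 8 of the 50 genes were called lower, beside 813 of all 19953 genes (otherwise 1631 of 18864).

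For Zfp622 the effect at morula was lower than at L2C for 6 genes, where 4.21% of all genes were called lower. None was called higher in edgeR, and 1 was called higher by DESeq2. By unadjusted p under 0.05 in edgeR 2 were higher and 16 lower, beside 4816 of all 18864 genes in either direction. Mcm6 had -0.72 (SE 0.19, adjusted p = 0.0142) and Mcm10 -0.70 (SE 0.17, adjusted p = 0.00769), and each was lost in 1 of 24 alternative analyses. Mcm3 (-0.43), Gmnn (-0.33), Cdc45 (-0.33) and Dbf4 (-0.32) were lost in 16, 12, 17 and 16 of 24. Without the second-index libraries none was called (adjusted p = 0.0927 for Mcm6 and 0.0562 for Mcm10), and without Zfp622 knockout morula library 4 there were 2.

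**Figure D5:**
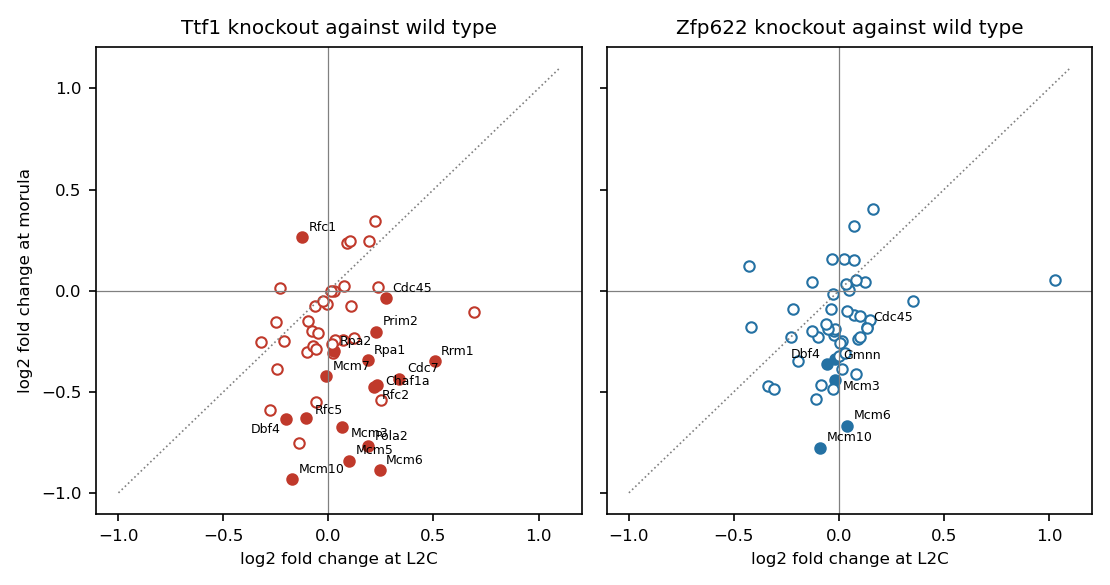
Log2 fold change of each of the 50 genes against wild type at L2C (horizontal axis) and at morula (vertical axis) for each knockout, with filled, named points where the stage difference was called and a dotted line where both effects are equal. Mcm6 of the Ttf1 knockout lies at 0.24 and -0.89, and that of the Zfp622 knockout at 0.04 and -0.67.

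Genes of the same pathways outside the 50 were taken from 4 lists. Here and below, up to 4 genes per list and comparison are named by smallest adjusted p. A gene named for 1 knockout may therefore also have changed in the other. Between the knockouts at morula no gene of these 4 lists was called in edgeR. Over all genes 17.9% fell and 21.3% rose in the Ttf1 and 13.5% fell and 15.6% rose in the Zfp622 knockout at morula. Of 30 other fork and firing genes 16 fell and 2 rose in Ttf1 knockout morulae, and 7 fell and 1 rose in Zfp622 knockout morulae. Rnaseh2b, a subunit of the enzyme that removes ribonucleotides from DNA, averaged 149.8 ± 2.83 CPM in wild type, 91.6 ± 9.65 without Ttf1 and 100.3 ± 6.79 without Zfp622 (log2 -0.71 and -0.58), and Lig3, another DNA ligase, fell as well (-0.93 and -0.84). Asf1b (-0.50), a histone chaperone, and Mcmbp (-0.44), which binds MCM proteins, fell in the Ttf1 knockout, and Dscc1 (-0.51) and Topbp1 (-0.34) in the Zfp622 knockout. Of 10 genes that control licensing 6 fell and 1 rose in the Ttf1 knockout, and 6 fell and 1 rose in the Zfp622 knockout. Fbxo5, an inhibitor of the anaphase-promoting complex, averaged 150.0 ± 4.32 CPM in wild type, 82.1 ± 4.24 without Ttf1 and 98.3 ± 12.4 without Zfp622 (log2 -0.87 and -0.61). Cul4b (-1.01 and -0.86), Ddb1 (-0.60 and -0.56) and Skp2 (-0.78 and -0.68), parts of ubiquitin ligases that act on CDT1 among other proteins, fell in both.

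Nucleotide metabolism outside the 50 moved both ways. Of 36 genes 11 rose and 10 fell in Ttf1 knockout morulae, and 11 rose and 9 fell in Zfp622 knockout morulae. Shmt1, which feeds one-carbon units to thymidylate synthesis, averaged 81.4 ± 5.38 CPM in wild type, 33.3 ± 4.47 without Ttf1 and 44.3 ± 9.39 without Zfp622 (log2 -1.29, adjusted p = 5.76e-06, and -0.88, adjusted p = 0.000193). Ctps, which makes CTP, fell in both (-0.62 and -0.59). Impdh2 (0.55) rose in the Ttf1 knockout, and Atic (-0.54) fell and Prps2 (2.49) rose in the Zfp622 knockout. Rrm2b, a small subunit of ribonucleotide reductase known as a p53 target, and Samhd1, which degrades deoxyribonucleotides, were chosen after their values were seen. Rrm2b averaged 4.32 ± 1.19 CPM in wild type, 9.41 ± 1.33 without Ttf1 and 8.57 ± 1.60 without Zfp622 (log2 1.12, adjusted p = 0.000373, and 0.99, adjusted p = 0.00179). Samhd1 averaged 11.4 ± 3.23 CPM in wild type, 24.04 ± 5.97 without Ttf1 and 17.1 ± 1.74 without Zfp622 (log2 1.08, adjusted p = 0.000794, and 0.59, adjusted p = 0.0427).

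Of 18 E2F and pocket protein genes 4 rose and 4 fell in Ttf1 knockout morulae, and 1 rose and 3 fell in Zfp622 knockout morulae. Beside these stand 21.3% higher and 17.9% lower over all genes in the Ttf1 and 15.6% and 13.5% in the Zfp622 knockout, so the counts were near the shares over all genes for Ttf1, and for Zfp622 the lower count was near it too. Rb1, which restrains E2F factors, was at 0.613, 0.343, 0.848 and 0.376 CPM in wild type, at 5.32, 8.59, 9.15 and 3.33 without Ttf1 and at 3.82, 3.32, 4.24 and 9.57 without Zfp622. Every knockout library lay above wild type (log2 3.56, adjusted p = 5.12e-05, and 3.22, adjusted p = 0.000219). Mybl2, an activator of late cell cycle genes, averaged 115 ± 10.9 CPM in wild type, 69.4 ± 3.44 without Ttf1 and 82.5 ± 10.8 without Zfp622 (log2 -0.72 and -0.47). Lin37 fell in both (-0.82 and -0.66), Tfdp1, a partner of E2F factors, in the Ttf1 knockout (-0.36) and E2f6 in the Zfp622 knockout (-0.48).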

How the data were processed

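Polyadenylated RNA of 24 libraries was measured. The authors deposited 1 table per library with the exon length and a read count for each gene. Per the submitters' processing notes these counts come from HISAT2 2.2.1 and featureCounts 2.0.1 with Ensembl release 99 and GRCm38 (mm10). Per the file headers counting used no strand, and multi-mapping reads were not counted. Symbols matched 55144 of 55471 gene IDs, and 25 of the 50 members overlap another annotated gene.

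Counts were tested in R 4.3.3 with edgeR 4.0.16 on limma 3.58.1 (filterByExpr, TMM, robust quasi-likelihood fits, Benjamini-Hochberg adjusted p of at most 0.05, prior count 2), over all libraries of a stage or all 24 for stage changes and interactions. DESeq2 1.42.0, other scalings, filters and left-out libraries gave alternatives. Counts of alternative analyses for a gene take identical fits once and leave out an added bound on the log2 fold change. The procedure was tested on simulated data. For a knockout against wild type it recovered 8% of 1.25-fold and 46% of 1.5-fold changes at L2C. At morula it recovered 14% and 60%, and for the Ttf1 interaction 4% and 26%. Only 50 genes were changed at each fold, of 16320 at L2C and 13836 at morula. In the data 39.2% of genes were called for Ttf1 at morula, and adjusted p depends on the share changed. The shares recovered therefore need not hold for these data. Members and lists were chosen with earlier results of these data known. Named in full were up to 10 members per comparison with the largest absolute log2 change past the threshold and at least 5 CPM in the higher group, up to 2 members per role by adjusted p, and up to 4 genes per further list. Other members are described by role. A gene of a further list that this rule picks is not reported here. No pair of libraries within a group agreed within sampling noise (chi-square per degree of freedom 6.13 to 22.8).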

Additional observations from a re-analysis of the deposited data

Results flagged for a closer look

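Single libraries stood apart from the other 3 of their group for 22 of the 300.0 combinations of gene and group (7.33%), where the gap to the nearest library was above 0.829 of the group's range. Chance gives about 5.0%. Values are in CPM, with the range of the other 3 libraries. Among wild-type L2C embryos these were Mcm6 198 (others 167 to 172), Gins3 121 (others 101 to 102) and Rfc4 25.2 (others 14.7 to 16.03) in library 2, and Orc5 99.1 (others 81.7 to 83.6) in library 4. Among Ttf1 knockout L2C embryos these were Mcm2 122 (others 86.8 to 87.4) and Rrm2 441 (others 371 to 379) in library 2, and Chaf1b 37.7 (others 31.5 to 32.2) in library 4. Among Zfp622 knockout L2C embryos these were Mcm4 101 (others 61.4 to 66.9) and Lig1 10.8 (others 4.85 to 5.46) in library 2. Among wild-type morula embryos these were Cdc45 104.7 (others 121 to 124) in library 2. Among Ttf1 knockout morula embryos these were Orc3 99.5 (others 85.6 to 87.4), Rfc2 49.7 (others 44.8 to 44.99), Lig1 33.7 (others 25.6 to 26.4) and Chaf1b 51.9 (others 46.4 to 47.0) in library 1, Prim2 41.0 (others 36.1 to 36.3) in library 2, Pola1 174 (others 140.1 to 142) in library 3, and Pole 31.2 (others 35.9 to 36.7) in library 4. Among Zfp622 knockout morula embryos these were Rfc3 88.6 (others 102 to 103.5) and Pola1 144 (others 110.4 to 114) in library 2, and Mcm6 87.2 (others 153 to 157), Orc6 199 (others 215 to 217) and Pola2 16.9 (others 21.7 to 22.4) in library 4.

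The knockout effect differed between stages by the interaction test in edgeR for 17 genes with Ttf1 and 6 with Zfp622. The log2 values for Ttf1 (effect at morula minus effect at L2C) were Mcm3 -0.75, Mcm5 -0.95, Mcm6 -1.14, Mcm7 -0.42, Mcm10 -0.77, Cdc45 -0.32, Rfc1 0.38, Rfc2 -0.70, Rfc5 -0.53, Pola2 -0.97, Prim2 -0.44, Rpa1 -0.54, Rpa2 -0.34, Dbf4 -0.44, Cdc7 -0.78, Rrm1 -0.87, Chaf1a -0.71. For Zfp622 they were Mcm3 -0.43, Mcm6 -0.72, Mcm10 -0.70, Gmnn -0.33, Cdc45 -0.33, Dbf4 -0.32.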

How the results depend on the processing

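With total counts Mcm2 (-0.045), Gins4 (-0.085), Orc4 (-0.38) and Rpa2 (-0.34) turned from called higher at morula than at L2C to negative log2 fold changes, the last 2 of them called lower. No other called gene of the 50 changed sign under any alternative that gave it an adjusted p. Over all alternatives 935 values of named genes kept their side of the threshold and 129 lost it. Leaving out 1 library at a time gave 0 to 1 higher and 0 to 1 lower genes for Ttf1 at L2C, 1 to 3 and 24 to 29 at morula, 2 (in every fit) and 14 to 18 for Zfp622 at morula, 33 to 34 and 8 to 9 for the wild-type stage change, 0 to 1 lower for Ttf1 against Zfp622 at morula, 0 to 1 higher and 13 to 18 lower for the Ttf1 and 0 to 1 and 2 to 6 for the Zfp622 interaction. For Ttf1 at L2C the higher count was 2 with DESeq2, 2 with total counts and 2 with only the libraries compared, and both counts were 0 without robust estimation and 0 without the second-index library (wild-type library 4). Without the second-index libraries the counts were also 1 higher and 15 lower for Ttf1 and 6 lower for Zfp622 at morula, and 8 and 0 lower for the interactions, where fewer libraries were tested. DESeq2 gave 2 lower for Ttf1 against Zfp622 at morula, and 1 higher and 10 lower for the Zfp622 interaction. Total counts gave 1 and 3 for the latter and 18 lower for the stage change. Only the libraries compared gave 1 higher for the Zfp622 interaction. With no filter 1 was higher for Ttf1 at morula and 0 for its interaction. A further bound of 1 on the size of the log2 fold change left 4 lower for the stage change, 1 lower and 0 higher for the Ttf1 interaction, 0 lower for the Zfp622 interaction, and 0 in either direction for Ttf1 at L2C and for both knockouts at morula. The cause of these differences was not tested.

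Same-numbered libraries had correlated deviations of -0.164 to 0.086, so the numbers were not taken as pairs. With the replicate number as a block, 0 genes were higher and 0 lower for Ttf1 at L2C, 4 and 25 at morula, 2 and 15 for Zfp622 at morula, and 3 were lower for the Zfp622 interaction. Every other block count lay within 1.5 times the reported one.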

Other observations

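The wild-type stage change of related genes was tested in edgeR, where 37.9% of all genes rose and 46.1% fell. Of 36 further nucleotide genes 27 rose from L2C to morula and 5 fell. Paics, an enzyme of purine synthesis, went from 168 ± 10.5 to 942 ± 41.8 CPM (log2 2.49), Gart, another purine enzyme, had a log2 fold change of 2.74, and Nme1, a nucleoside diphosphate kinase, went from 34.4 ± 6.33 to 414 ± 18.8 CPM (log2 3.59). Rrm2b went the other way, from 200.1 ± 14.9 to 5.31 ± 1.48 CPM (log2 -5.24). Of 18 E2F and pocket protein genes 12 fell and 5 rose. E2f5 went from 169 ± 21.0 to 3.98 ± 0.763 CPM (log2 -5.41) and E2f1, an activating E2F factor, from 57.7 ± 6.28 to 3.76 ± 0.594 CPM (log2 -3.93), while Lin37 rose (3.05) and Lin54 fell (-1.66). Of 30 further fork and firing genes 13 rose and 13 fell, among them Rnaseh2b (4.77), Rif1, which delays late origins (-1.68), Ticrr (-1.62) and Pole4 (-1.62). Of 10 licensing control genes 4 rose and 3 fell, with Ddb1 at 1.84, Cul4a at 1.54, Skp2 at 0.88 and Cul4b at -0.80. In Ttf1 knockout L2C embryos Top1, DNA topoisomerase I (-0.43, adjusted p = 0.0206), and Tfdp1 (-0.40, adjusted p = 0.0339) were the 2 genes of these lists called, both lower.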
